A study of Homo sapiens with 6 samples.

Results

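The HOX cluster genes were taken from the deposited expression table as every gene whose symbol reads HOX, a cluster letter from A to D and a position number, which gave 39 of the 54308 genes listed. The HOXA cluster (chromosome 7) held 11 of them, HOXB (chromosome 17) 10, and HOXC (chromosome 12) and HOXD (chromosome 2) 9 each. They were read in 6 RNA-seq libraries of 143B, a human osteosarcoma cell line, 3 from vector control cells (VC) and 3 from cells in which CNTNAP4, a neurexin-family cell adhesion gene, had been deleted by CRISPR/Cas9 (KO). Per the labels, VC cells had received a vector plasmid and KO cells a CNTNAP4 KO plasmid, each for 48 h, and all cells shared the same serum-containing medium. The methods describe a longer interval followed by the growth of colonies from single cells, and they do not say which colony gave the KO libraries, so a difference between clones and the deletion of CNTNAP4 cannot be told apart. All groups are cultured cells of this line, with no animal, tissue or further genotype in the series.

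HOX genes encode homeodomain transcription factors that give cells their position along the head-to-tail axis and along the limb. Within each cluster the genes lie in the order of their position numbers, low numbers acting towards the head and high numbers towards the tail and the distal limb, and genes with the same number in different clusters are paralogs. Mesenchymal cells such as osteoblasts keep a HOX pattern from their place of origin, with posterior genes of the A and D clusters patterning the limb bones. HOX proteins bind DNA with TALE-class cofactors of the PBX and MEIS families, Polycomb complexes keep the clusters silent, Trithorax complexes keep them active, and retinoic acid induces the low-numbered genes.

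The homeobox is the stretch of each gene that encodes the DNA-binding homeodomain. It is shown for HOXA5, the member with the largest change, and for the paralogs of position 10, because these 3 differed in level and in change. Each sequence below is 180 bases long, in the coding direction from 5′ to 3′, from GRCh38 with the GENCODE release 29 annotation. The 18 capitals encode the start of the conserved motif in the recognition helix. The HOXA5 homeobox lies at chr7:27141886-27142065 on the minus strand. Those of HOXA10, HOXC10 and HOXD10 lie at chr7:27171947-27172126 on the minus strand, chr12:53989219-53989398 on the plus strand and chr2:176119004-176119183 on the plus strand. All lie in coding exons.
HOXA5: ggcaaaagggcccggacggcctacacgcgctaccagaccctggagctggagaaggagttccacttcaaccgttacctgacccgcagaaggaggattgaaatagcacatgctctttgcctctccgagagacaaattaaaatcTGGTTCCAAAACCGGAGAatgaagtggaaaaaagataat
HOXA10: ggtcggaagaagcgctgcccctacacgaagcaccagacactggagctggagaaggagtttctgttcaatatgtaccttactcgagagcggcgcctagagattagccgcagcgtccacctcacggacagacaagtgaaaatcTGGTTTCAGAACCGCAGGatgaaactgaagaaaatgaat
HOXC10: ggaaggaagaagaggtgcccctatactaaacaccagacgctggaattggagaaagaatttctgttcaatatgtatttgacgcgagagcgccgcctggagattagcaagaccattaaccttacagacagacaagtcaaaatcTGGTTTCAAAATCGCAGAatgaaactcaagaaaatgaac
HOXD10: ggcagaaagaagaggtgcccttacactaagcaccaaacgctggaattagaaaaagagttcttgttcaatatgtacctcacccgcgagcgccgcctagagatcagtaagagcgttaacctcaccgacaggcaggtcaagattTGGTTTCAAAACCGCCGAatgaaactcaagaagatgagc

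A homeobox was found in all 39 members. Between members with the same position number in different clusters the homeoboxes were 69.4 to 90.6% identical (median 81.7% over 42 pairs). The 172 pairs with different numbers in the same cluster had a median of 61.4%, with HOXA6 and HOXA7 highest at 91.1%. HOXA10 and HOXC10 were 81.7% identical, HOXA10 and HOXD10 77.8% and HOXC10 and HOXD10 82.8%. Of the 569 pairs between clusters, 1 shared a run of 50 or more identical bases anywhere in their annotated transcripts, HOXB3 and HOXD3 with 62. Overlap within a cluster was more extensive. In GENCODE, HOXC4 shares 305 exonic bases with HOXC5 and 484 with HOXC6 on the same strand, HOXD10 shares 452 with HOXD11, and HOXB3 shares 433 with HOXB6, so values within these pairs may hold reads of the partner. HOXA7 shares 1507 bases, or 62.5% of its exonic length, with the antisense RNA HOXA-AS3, HOXA6 shares 505 bases (39.3%) with the same RNA, and HOXA11 shares 717 bases (31.1%) with HOXA11-AS. The library kit was stranded per the labels, and whether counting used the strand is not given in the sources used here.

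The table holds log2 signals, quantile-normalized between libraries, so that every library had the same range, -10.87 to 12.04, and a median of 0.62. An empty cell means no value, and 20333 to 21041 genes had a value in a library. The depth behind the values is unknown, and the precision of each value is given by the spread of the 3 libraries. The linear unit is not stated. Among the 1264 genes with a value in just 1 library, the log2 signal dropped by 0.854 for each doubling of exonic length, as a value per length does, and levels of different genes are compared below on that scale. For CNTNAP4 only VC replicate 3 held a signal (-7.18), so it cannot check the labels. Of the mesenchymal and osteoblast markers, VIM (10.44 in VC and 10.82 in KO) and SPARC (6.50 and 6.87) were far above the median and RUNX2 (1.35 and 1.56) was near it, while SP7, the osteoblast regulator, had values of -7.66 to -6.52 in 4 libraries and BGLAP, osteocalcin, had values only in KO replicates 1 and 2 (-2.84 and -2.90). These markers did not move together. SPP1, osteopontin, was 2.92-fold higher in KO (adjusted p = 0.00963), whereas COL1A2, a type I collagen chain, was called lower (-0.81 on the log2 scale, adjusted p = 0.0161). Summed linear signals of the 9 mesenchymal markers were 1390 to 1567 in VC and 1685 to 2103 in KO (mostly VIM), those of 5 epithelial markers 3.27 to 3.60 and 1.96 to 2.44 (almost all EPCAM, with CDH1 at 1 value and GRHL2 at 1 value), those of 5 endothelial markers 18.6 to 20.5 and 36.9 to 41.0 (almost all TIE1), and those of 5 leukocyte markers 0.199 to 0.229 and 0.054 to 0.071. Among the epithelial markers, CLDN4 was called lower as EPCAM was (-1.89 and -0.67), while ESRP1 had -7.76 and -6.10 in 2 VC libraries and -5.50, -2.80 and -2.80 in KO (adjusted p = 0.0854). These sums moved with the groups and their part in the HOX values was not tested. In bulk RNA, fewer cells expressing a gene and less RNA per cell cannot be told apart.

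143B cells expressed genes of all 4 clusters, most strongly HOXB. Of the 39 members, 37 had a value in all 6 libraries. HOXB1, the hindbrain gene, was seen only in VC replicate 2, at -6.74. HOXC12 had values of -7.56 in VC replicate 3 and -7.51 in KO replicate 3. The levels of the other 37, as the mean log2 signal over the 6 libraries, ran from -4.0 for HOXD3 to 4.90 for HOXB9, and 24 of them lay in the upper 50% of all genes tested, whose median of mean signals was 1.02. The members in that upper part were 8 of 10 in HOXB, 6 of 11 in HOXA, 6 of 9 in HOXC and 4 of 9 in HOXD. The median level of the members tested was 3.88 in HOXB, 2.46 in HOXC, 1.28 in HOXA and 0.54 in HOXD. By position, 3 of the 8 members at positions 1 to 3, 12 of 15 at positions 4 to 8 and 9 of 16 at positions 9 to 13 were in the upper part.

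**Figure D1:**
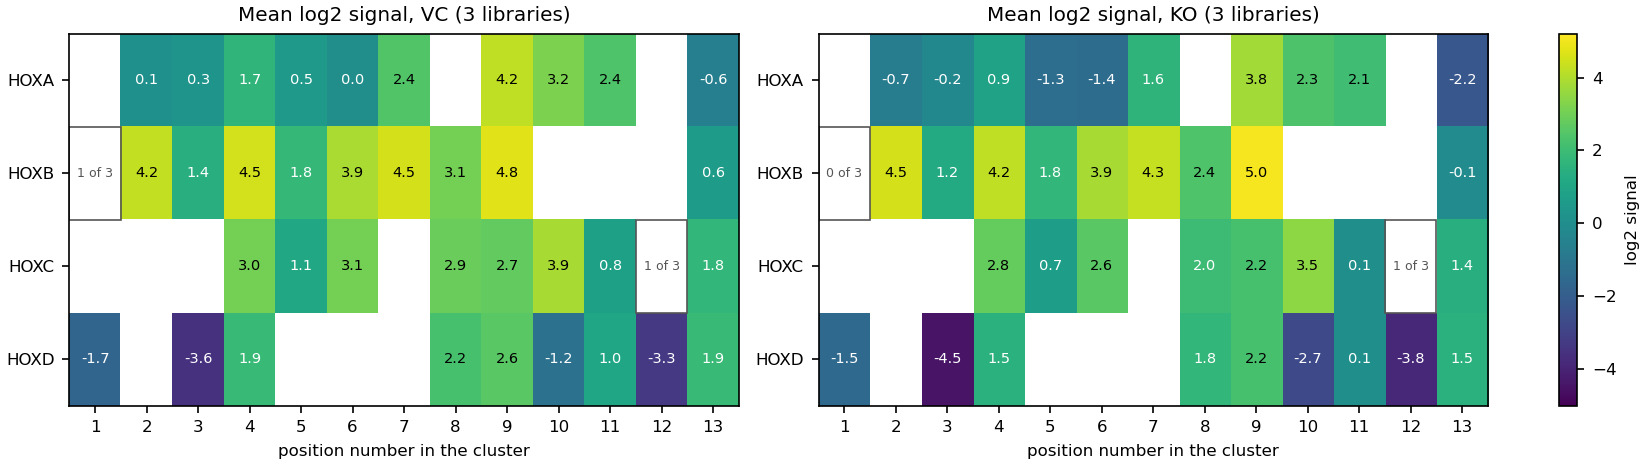
Mean log2 signal of HOX genes in VC and in KO cells, with clusters A to D as rows and position numbers as columns. Colour and printed value give the level, an empty cell has no gene or is not reported here, a framed cell gives the number of libraries with a value, and the HOXB row holds the highest level, 4.76 in VC and 5.05 in KO for HOXB9.

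HOXB9, which acts in the thorax and is expressed in many tumours, was the highest of all members, with log2 signals of 4.79, 4.65 and 4.84 in VC and 4.99, 5.33 and 4.82 in KO. Its lowest library lay above the highest library of HOXB7 (4.13 to 4.57 over the 6 libraries). HOXB7, HOXB2 (4.12 to 4.68) and HOXB4 (3.98 to 4.52) overlapped one another and cannot be ordered. HOXA9, a posterior gene best known from leukaemia, was the highest of its cluster at 3.70 to 4.29. HOXB6 followed at 3.80 to 4.0, and HOXC10, the highest of the HOXC genes, at 3.23 to 3.92. These 7 genes stood at the 79.3th to 90.4th percentile of all genes tested. The other leading genes of their clusters were HOXA10 (2.09 to 3.26), HOXC4 (2.77 to 3.11), HOXD9 (1.97 to 2.67) and HOXD8 (1.38 to 2.28).

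The HOXD cluster was uneven along its length. HOXD8, HOXD9, HOXD4 and HOXD13, the distal limb and digit gene, had mean levels of 1.99, 2.39, 1.70 and 1.72. Their neighbours HOXD10 (-1.98), HOXD3 (-4.0) and HOXD12 (-3.57) were far lower, and HOXD12 varied most between libraries, from -5.40 to -2.10 in VC and from -5.53 to -1.94 in KO. In HOXA the mean levels were -0.39 for HOXA5 and -0.68 for HOXA6, 2.03 for HOXA7 and 4.02 for HOXA9, and -1.40 for HOXA13. At position 5 the HOXB paralog was highest (HOXB5 1.78, HOXC5 0.90, HOXA5 -0.39), at position 10 the HOXC paralog (HOXC10 3.67, HOXA10 2.76, HOXD10 -1.98), and at position 13 HOXD13 (1.72) and HOXC13 (1.58) exceeded HOXB13 (0.28) and HOXA13 (-1.40). Of the PITX and TBX genes that mark the hindlimb and forelimb, PITX1 was expressed at 3.52 to 3.93 in VC and 3.06 to 3.55 in KO, TBX4 had values in KO replicates 2 and 3 alone (-6.85 and -7.83), and TBX5 had no value.

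HOX genes were lower in KO cells. Of the 37 members tested, 19 differed from VC at an adjusted p under 0.05 and all 19 were lower (51.4% of members, where 19.8% of all 19306 genes tested were called lower and 32.9% were called in either direction). None was called higher, where 13.1% of all genes were. At an unadjusted p under 0.05 there were 22 of the 37 members, where 9241 of all 19306 genes passed. The mean was lower in KO for 34 members, where it was lower for 59.8% of all genes. In 26 members all 3 KO libraries lay under all 3 VC libraries (36.7% of all genes with 6 values did), and in 1, HOXB2, they lay above (22.6% of all genes, or 59.3% for both directions together). The median log2 fold change, KO against VC, was -0.49 over the members and -0.13 over all genes tested. The size was moderate. A change of at least 2-fold was found in 4 called members, HOXA5, HOXA6, HOXA13 and HOXD10, all lower (5.43% of all genes were lower and 4.10% higher by that rule).

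The share of called members differed among the clusters as a count, with 9 of 11 in HOXA (median log2 fold change -0.80), 5 of 8 in HOXC (-0.47), 3 of 9 in HOXD (-0.44) and 2 of 9 in HOXB (-0.17), and this difference between clusters was not tested. The other tested genes of chromosomes 7, 12, 2 and 17 had medians of -0.18, -0.071, -0.097 and -0.11, with 36.7, 32.3, 32.1 and 33.0% called. By position, 2 of 7 members at positions 1 to 3, 8 of 15 at positions 4 to 8 and 9 of 15 at positions 9 to 13 were called. The number of called members depended on which library was left out. Leaving out VC replicate 1, 2 or 3 gave 2, 5 or 2 members (7.54, 13.1 or 6.57% of all genes called), and leaving out KO replicate 1, 2 or 3 gave 24, 12 or 5 (47, 23.6 or 10.9%), and every called member was lower in each of these fits. HOXA5 and HOXD10 were the members called in all 6.

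**Figure D2:**
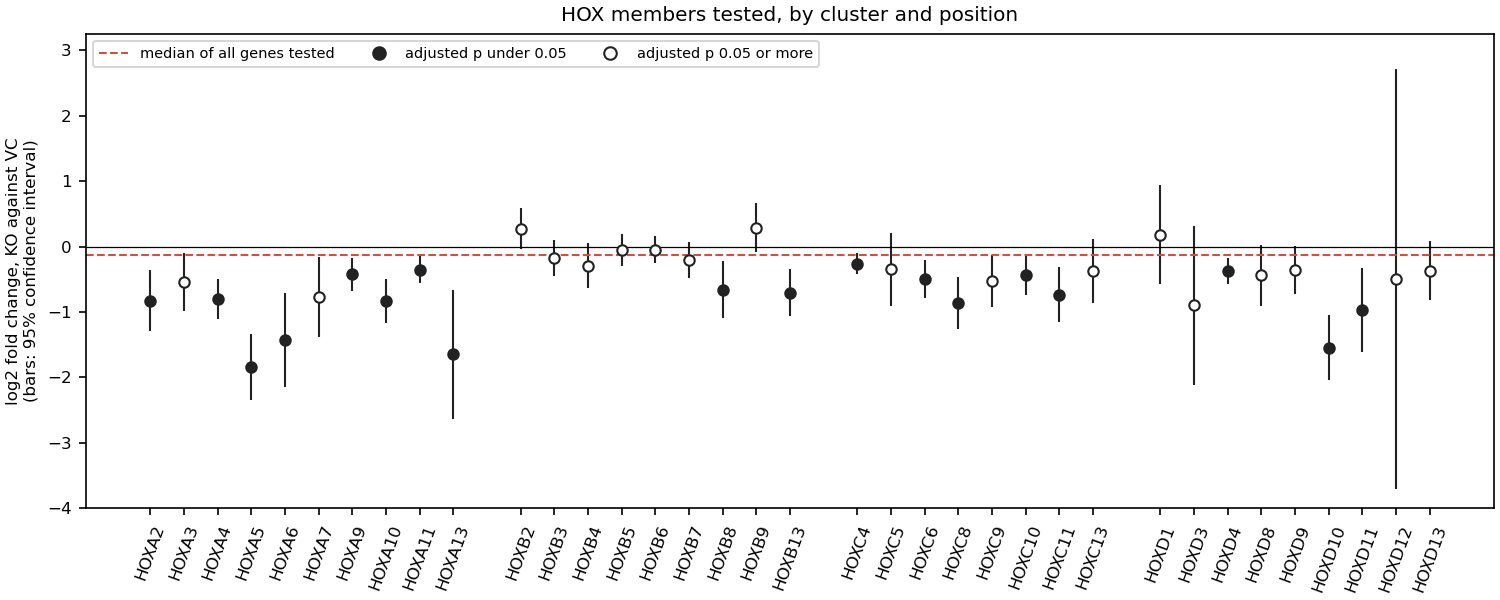
Log2 fold change, KO against VC, with its 95% confidence interval for HOX members tested, ordered by cluster and position. Filled points have an adjusted p under 0.05, all of them under zero, and the dashed line is the median of all genes tested, -0.13.

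All 11 HOXA genes had every KO library under every VC library, with log2 fold changes from -1.84 to -0.35. HOXA5, a patterning gene of the neck, lung and forelimb level, had log2 signals of 0.57, 0.52 and 0.50 in VC and -0.99, -1.74 and -1.20 in KO. The VC libraries were nearly equal and the KO libraries were all far under them. The mean signal was 3.58-fold lower in KO (a log2 fold change of -1.84 with standard error 0.20, adjusted p = 0.00882), and the adjusted p was at most 0.0418, without VC replicate 3. HOXA6, its neighbour, had signals of -0.18, 0.09 and 0.20 in VC and -1.16, -1.99 and -1.02 in KO, lowest in KO replicate 2. It was 2.69-fold lower (standard error 0.29 on the log2 scale, adjusted p = 0.0218), and it was called in 3 of 6 fits made with a library left out in turn (leave-one-library-out fits) (highest adjusted p 0.0736). HOXA13, the most posterior gene and a factor of hand and foot formation, had signals of -0.57, -0.52 and -0.65 in VC and -1.63, -3.10 and -1.94 in KO. Here the KO libraries were spread over more than 1 log2 unit, with KO replicate 2 lowest. The drop was 3.12-fold (standard error 0.39, adjusted p = 0.0315), called in 2 of those 6 fits (highest adjusted p 0.0885, without VC replicate 1).

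**Figure D3:**
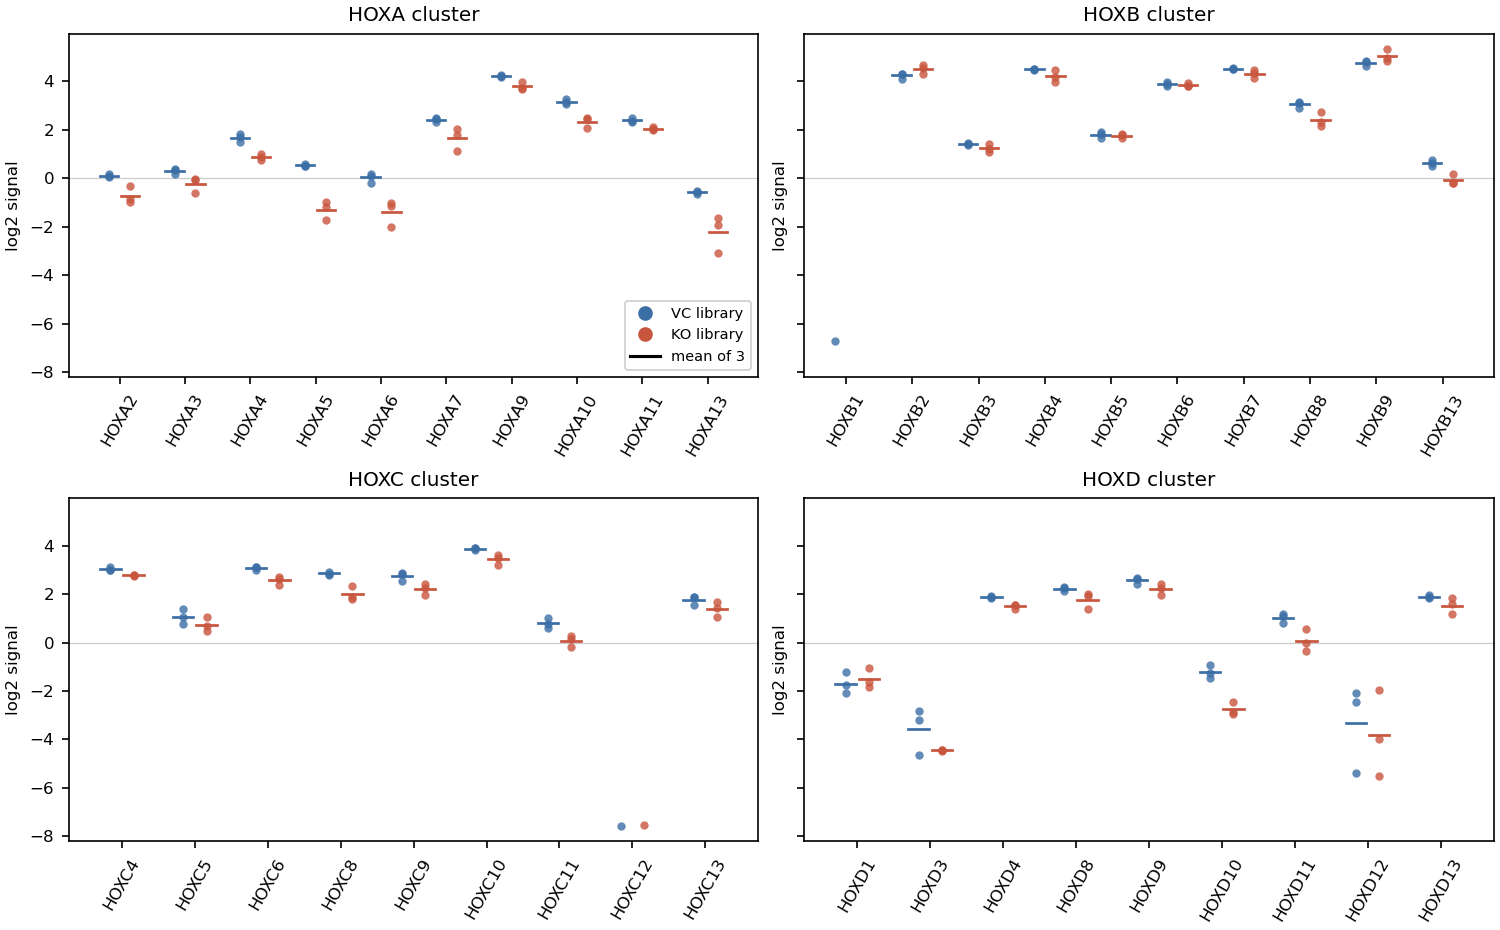
Log2 signals of HOX members in each VC and KO library, by cluster, with each point a library and each bar the mean of 3 (HOXB1 and HOXC12 have fewer values). In HOXA every KO point shown lies under every VC point of the same gene, which in HOXB holds for 4 of the 9 genes tested.

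The other called HOXA genes changed less. HOXA10, which patterns the thigh segment and the uterus, had signals of 3.26, 3.09 and 3.16 in VC and 2.50, 2.09 and 2.45 in KO, with no overlap (a log2 fold change of -0.83 with standard error 0.13, adjusted p = 0.0148). HOXA4 had 1.82, 1.5 and 1.72 in VC and 1.02, 0.74 and 0.89 in KO (-0.80, adjusted p = 0.0132). Both were called in 4 of the 6 leave-one-library-out fits, with highest adjusted p of 0.0576 and 0.0559. HOXA2, a gene of the hindbrain and pharyngeal arches, fell by 0.83 on the log2 scale (VC 0.035, 0.11 and 0.17, KO -0.34, -1.0 and -0.85, adjusted p = 0.0276). The posterior genes HOXA9 and HOXA11 were lower by less. HOXA9 had 4.29, 4.22 and 4.19 in VC and 3.98, 3.70 and 3.73 in KO (-0.43, adjusted p = 0.0306), and HOXA11, which patterns the forearm and lower leg, had 2.51, 2.34 and 2.37 in VC and 2.13, 2.03 and 2.01 in KO (-0.35, adjusted p = 0.0302). HOXA2, HOXA9 and HOXA11 were called in 1 of those 6 fits each, the one without KO replicate 1, with highest adjusted p of 0.0862, 0.0982 and 0.0963. HOXA3 (log2 fold change -0.54, adjusted p = 0.0658) and HOXA7 (-0.77, adjusted p = 0.061) missed the threshold, and each had an adjusted p under 0.05 when 1 was added to the linear signal.

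In HOXC, all 8 members tested had a lower mean in KO and 5 were called. HOXC8, a thoracic patterning gene, had signals of 2.85, 2.93 and 2.81 in VC and 2.32, 1.78 and 1.89 in KO, the largest change of the cluster (a log2 fold change of -0.86 with standard error 0.16, adjusted p = 0.0179). HOXC11 had 1.03, 0.61 and 0.77 in VC and 0.26, -0.19 and 0.14 in KO (-0.74, adjusted p = 0.0288). In both, all KO libraries lay under all VC libraries. HOXC6 fell by 0.50 (VC 3.13, 2.99 and 3.14, KO 2.73, 2.39 and 2.64, adjusted p = 0.029), and HOXC10, a hindlimb gene and the most abundant of the cluster, by 0.43 (VC 3.84, 3.92 and 3.90, KO 3.62, 3.23 and 3.50, adjusted p = 0.0436). HOXC4 had the smallest change of the 5, 3.11, 3.02 and 3.02 in VC and 2.79, 2.77 and 2.80 in KO (-0.26, standard error 0.066, adjusted p = 0.0358). HOXC4 and HOXC10 were not called once each library was centred on its median over the genes with 6 values. Among the leave-one-library-out fits, HOXC6, HOXC8 and HOXC10 were called in 2 of 6 and HOXC4 and HOXC11 in 1, the one without KO replicate 1, with highest adjusted p of 0.0935, 0.0619, 0.119, 0.124 and 0.0826. HOXC9 (-0.53, adjusted p = 0.0523), HOXC13 (-0.38, adjusted p = 0.179) and HOXC5 (-0.35, adjusted p = 0.259) were not called. KO and VC libraries of HOXC5 and HOXC13 overlapped.

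Of the 9 HOXD genes tested, 3 were called, all lower in KO. HOXD10, which patterns the hindlimb and its motor neurons, had signals of -1.45, -1.25 and -0.91 in VC and -2.44, -2.93 and -2.86 in KO. The gap between the groups exceeded the range within either. The mean was 2.92-fold lower (a log2 fold change of -1.54 with standard error 0.20, adjusted p = 0.0101, at most 0.0427, without VC replicate 3). HOXD11, which shares exonic bases with HOXD10 and patterns the forearm, had 1.17, 0.83 and 1.08 in VC and 0.56, -0.35 and -0.03 in KO (-0.97, adjusted p = 0.0397), and HOXD4 had 1.84, 1.90 and 1.91 in VC and 1.56, 1.39 and 1.57 in KO (-0.38, adjusted p = 0.0242). HOXD11 was called in 1 of the 6 leave-one-library-out fits, without KO replicate 1, and HOXD4 in 2, with highest adjusted p of 0.111 and 0.0873. The abundant HOXD9 (VC 2.64, 2.41 and 2.67, KO 2.25, 1.97 and 2.41, adjusted p = 0.108) and HOXD8 (VC 2.28, 2.12 and 2.24, KO 1.91, 1.38 and 2.01, adjusted p = 0.116) were not called, nor was HOXD13 (-0.37, adjusted p = 0.16). At the low end, the VC libraries of HOXD3 and both groups of HOXD12 were too spread to show a difference of this size. HOXD3 had -3.20, -4.64 and -2.82 in VC and -4.47, -4.45 and -4.44 in KO (adjusted p = 0.199, with the call made without VC replicate 2), and HOXD12 a 95% interval of the log2 fold change from -3.70 to 2.71 (adjusted p = 0.785). HOXD1 had a slightly higher mean in KO (a log2 fold change of 0.18, 95% interval -0.58 to 0.94, adjusted p = 0.667).

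In HOXB, the cluster with the highest median level, HOXB8 and HOXB13 were called of the 9 tested. HOXB8 had signals of 3.12, 2.91 and 3.15 in VC and 2.73, 2.31 and 2.15 in KO (a log2 fold change of -0.66 with standard error 0.17, adjusted p = 0.0384). HOXB13, a posterior gene expressed in prostate that lies far from the rest of its cluster, had 0.77, 0.52 and 0.62 in VC and 0.19, -0.21 and -0.18 in KO (-0.71, standard error 0.14, adjusted p = 0.022). All KO libraries of these genes lay under all VC libraries, and each was called in 1 of the 6 leave-one-library-out fits, without KO replicate 1 (highest adjusted p 0.111 and 0.0736). The others missed the threshold, and their intervals bound the change. For HOXB6 (VC 4.0, 3.80 and 3.91, KO 3.94, 3.81 and 3.83) the 95% interval of the log2 fold change was -0.26 to 0.17 and for HOXB5 (VC 1.84, 1.66 and 1.91, KO 1.81, 1.79 and 1.65) it was -0.30 to 0.19. For HOXB7 it was -0.48 to 0.063, for HOXB4 -0.64 to 0.056 and for HOXB3 -0.45 to 0.10. The KO libraries of HOXB4 and HOXB7 lay under all VC libraries, and HOXB4 was called without KO replicate 1. HOXB2 (VC 4.31, 4.12 and 4.31, KO 4.57, 4.68 and 4.32, adjusted p = 0.136) and HOXB9 (0.29, adjusted p = 0.187) had higher means in KO, and the libraries of HOXB9 overlapped.

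Paralogs of the same position number were also compared within each library, as the log2 signal of the one minus that of the other, which removes anything that shifts a whole library. This comparison was chosen after the values had been seen. In 39 pairs the exact permutation test, two-sided, can give no p under 0.1 with 3 libraries against 3, and 25 pairs reached 0.1, or 0.156 after Benjamini-Hochberg adjustment over the 39. A p of 0.1 means that the groups do not overlap, which held for 59.3% of all single genes with 6 values. All 8 pairs of a HOXA gene with its HOXB paralog were among them, and in each the HOXA gene was lower relative to the HOXB gene in KO, by 0.37 for HOXA3 and HOXB3 up to 1.79 for HOXA5 and HOXB5 on the log2 scale. Relative to its paralog, the HOXA gene was lower in KO in 5 of 7 pairs with HOXC, all 5 without overlap. It was lower in 4 of 7 pairs with HOXD, 2 of them without overlap. In either direction, 6 of the HOXC pairs and 4 of the HOXD pairs did not overlap. HOXA11 was higher in KO relative to HOXC11 by 0.38 and relative to HOXD11 by 0.62, both without overlap. HOXA5 minus HOXB5 was -1.27, -1.15 and -1.41 in VC and -2.80, -3.53 and -2.86 in KO. The difference widened in every KO library beyond the range of VC. HOXA10 minus HOXC10 was -0.58, -0.83 and -0.74 in VC and -1.13, -1.14 and -1.05 in KO, and HOXA10 minus HOXD10 differed the other way, with 4.71, 4.34 and 4.08 in VC and 4.94, 5.02 and 5.31 in KO. Of the 6 pairs of HOXB with HOXC genes, 3 did not overlap. Of the 6 of HOXC with HOXD genes 2 did not, and of the 5 of HOXB with HOXD genes 2 did not. HOXB9 minus HOXC9 was 0.82 higher in KO, and HOXC10 minus HOXD10 was 1.11 higher.

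**Figure D4:**
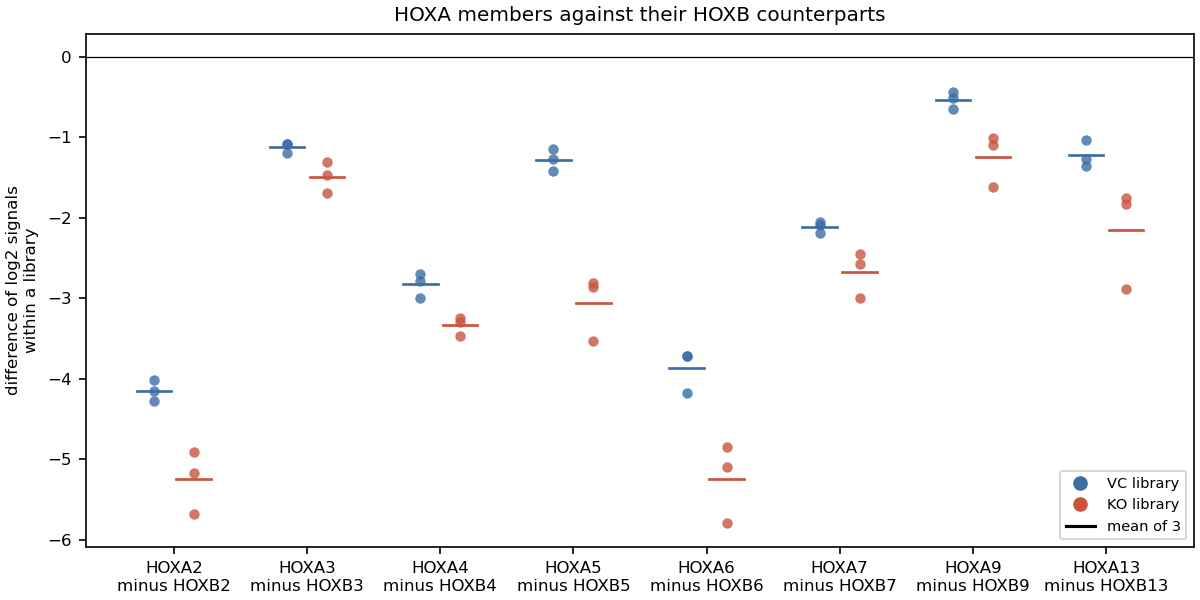
Log2 signal of each HOXA gene minus that of its HOXB paralog, computed within each library, for VC and KO. Each point is a library, each bar the mean of 3, and in all 8 pairs the 3 KO points lie under the 3 VC points.

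The non-coding RNAs transcribed within the clusters were read beside their neighbours. Of 24 listed, 22 were in the table and 16 could be tested. Of these, 5 were called lower and 1 higher (37.5% called, against 32.9% of all genes), and the median log2 fold change was -0.60. In HOXA, HOXA10-AS, antisense between HOXA9 and HOXA10, had signals of 1.85, 1.84 and 2.04 in VC and 1.28, 1.14 and 1.02 in KO (log2 fold change -0.77, adjusted p = 0.0112). HOXA11-AS fell by 0.68 (adjusted p = 0.0259, in 1 of the 6 leave-one-library-out fits) and HOXA-AS3, which overlaps HOXA6 and HOXA7, by 1.51 (adjusted p = 0.0433, in 1 of 6), near the low end with VC signals of -4.29 to -4.02. HOTTIP, at the posterior end beside HOXA13, was not called (-0.91, adjusted p = 0.198), nor were HOXA-AS2 (0.32, adjusted p = 0.281) and HOTAIRM1 (-0.15, adjusted p = 0.492), both in the anterior part of the cluster. HOTAIR, the RNA between HOXC11 and HOXC12 known to bind Polycomb proteins, had -1.67, -1.62 and -1.68 in VC and -2.15, -2.15 and -2.25 in KO, with replicates much closer than the gap (-0.53, standard error 0.069, adjusted p = 0.0103). HOTAIR was not called under trend and robust moderation. HOXC-AS1 fell by 0.79 (adjusted p = 0.0413) and was called in none of those fits, and HOXC-AS2 and HOXC-AS3 were not called (-0.83 and -0.82, adjusted p = 0.186 and 0.125).

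Of the 3 RNAs tested in HOXD, 1 was called, and it was higher in KO. HOXD-AS2, which shares 379 exonic bases with HOXD3 on the opposite strand, had 2.84, 2.73 and 3.09 in VC and 3.21, 3.57 and 3.48 in KO, a rise of 0.53 on the log2 scale (adjusted p = 0.0432, in 1 of 6 leave-one-library-out fits). All KO libraries lay above all VC libraries, while HOXD4 on the other strand was called lower. HAGLR (0.25, adjusted p = 0.173) and HAGLROS (0.22, adjusted p = 0.0647), between HOXD1 and HOXD3, had higher means without passing the test. In HOXB, HOXB-AS1 was not called (-0.21, adjusted p = 0.259).

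Genes flanking the clusters were called in both directions. Of the 24 tested, 10 were called higher and 3 lower, where 13.1% of all genes were called higher and 19.8% lower. Of the 24, 21 lay in the upper 50% of mean signal, where 16.7% of genes were called higher and 22.5% lower. The median log2 fold change of the flanking genes was 0.17. Of the 10 called higher, 5 lay beside HOXC, 2 beside HOXA, 2 beside HOXD and 1 beside HOXB. The 3 called lower lay 1 each beside HOXA, HOXB and HOXC. Beside HOXA, SKAP2, a signalling adaptor gene, fell by 0.50 (VC 1.44, 1.60 and 1.48, KO 1.13, 1.01 and 0.90, adjusted p = 0.0184), while HIBADH, a mitochondrial dehydrogenase gene beyond HOXA13, rose by 0.54 (VC 2.68, 2.73 and 2.62, KO 3.13, 3.38 and 3.16, adjusted p = 0.016). SKAP2 was called in 2 and HIBADH in 4 of the 6 leave-one-library-out fits. Beside HOXC, CALCOCO1 rose by 0.85 (adjusted p = 0.0241), and SMUG1, a DNA repair glycosylase gene, by 0.26 (adjusted p = 0.0346), the former called in 2 and the latter in 1 of those fits. HNRNPA1, a splicing factor gene and the most abundant of the list at 8.58, rose by 0.27 (adjusted p = 0.0418). CBX1, a heterochromatin protein gene near HOXB, fell by 0.60 (adjusted p = 0.0168), SKAP1, nearest to HOXB1, was not called (0.19, adjusted p = 0.30), and NFE2L2 near HOXD rose by 0.53 (adjusted p = 0.0182). CBX1 was called in 2, NFE2L2 in 3 and HNRNPA1 in 1 of those fits.

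**Figure D5:**
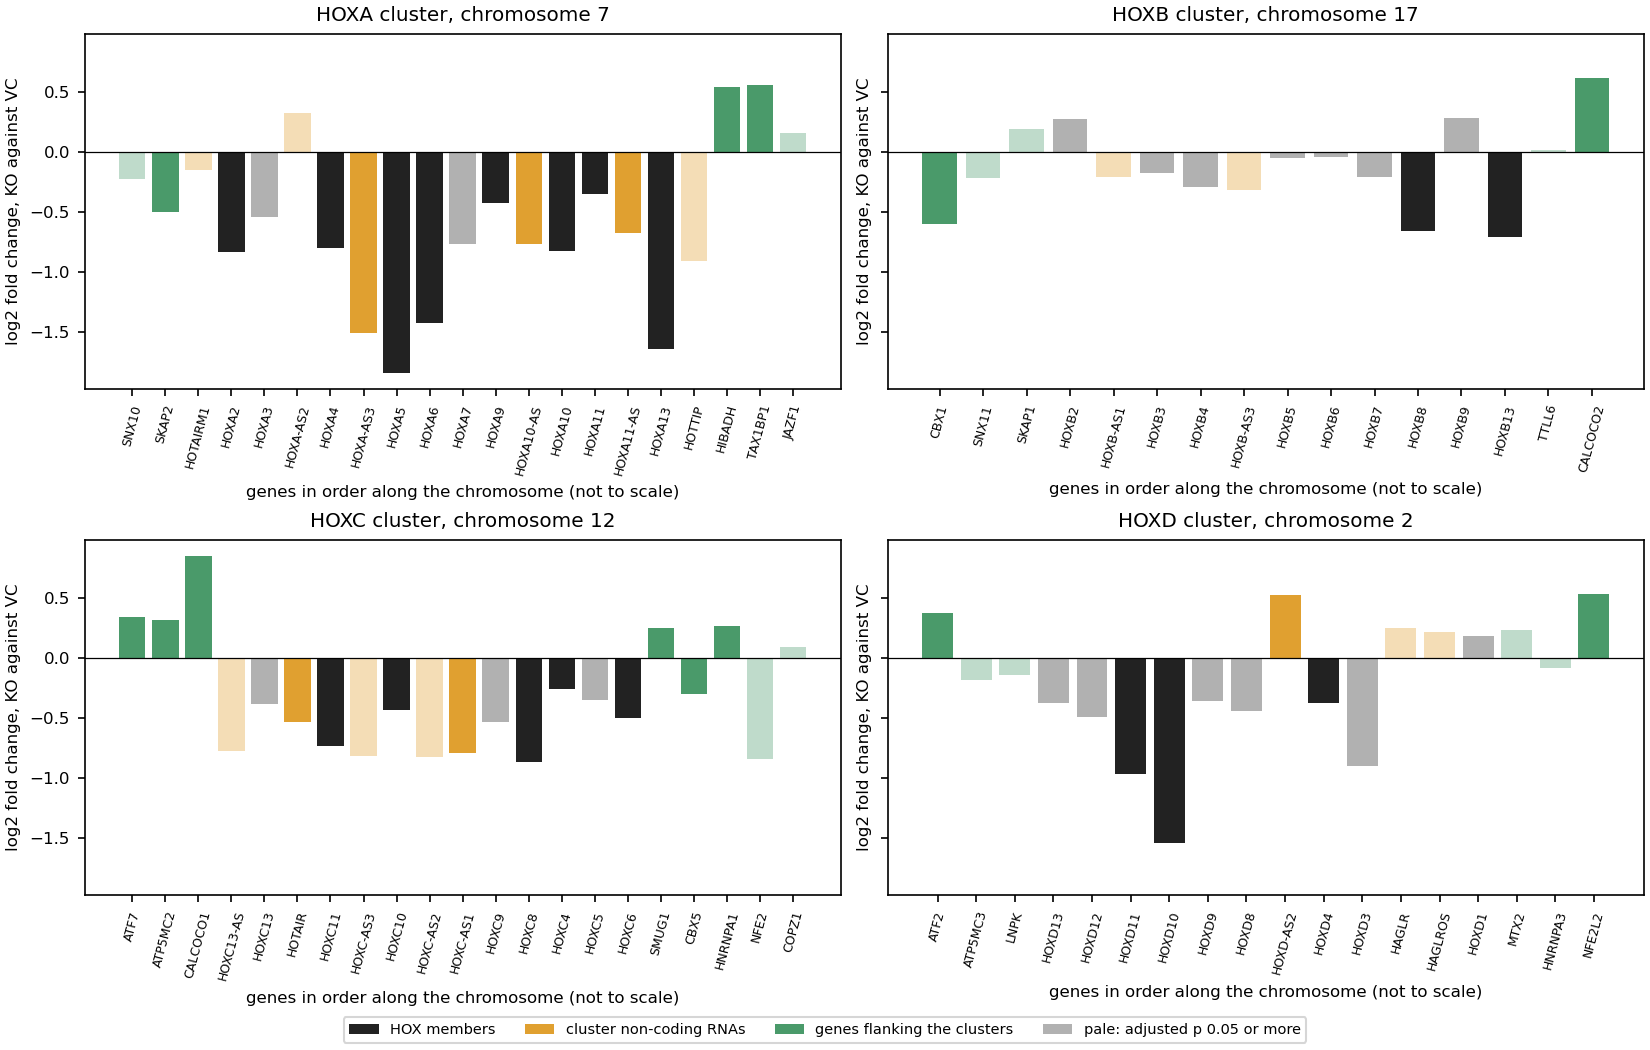
Log2 fold change, KO against VC, of HOX genes (black), non-coding RNAs inside the clusters (orange) and flanking genes (green) in chromosome order, not to scale. Pale bars have an adjusted p of 0.05 or more, and in HOXA every HOX bar shown lies under zero, as do the flanking genes SNX10 (-0.23) and SKAP2 (-0.50), while HIBADH (0.54) and TAX1BP1 (0.56) lie above it.

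Promoter sequences from RefSeq (GRCh38.p14), each a window from upstream of a transcription start to just after it, were matched to 20 of the 39 members, with 27 windows. Most of these genes were of HOXA and HOXD. HOXB was represented by HOXB1 alone, and HOXC by HOXC4 and HOXC5, which have the same window and count as 2 genes. Several of the windows belong to HOXA3. The shares below therefore do not describe all clusters. The CCAAT motif was searched on both strands and could also read ATTGG. It was present in the windows of 17 of the 20 genes (85%), against 39.7% of 27305 genes with a window, and absent in those of HOXA11, HOXD8 and HOXD11. TATAAA, searched the same way, was in 4 of 20 (20%) against 14%, the HOX and PBX composite TGATTNAT in 2 (10%), HOXA2 and HOXD11, against 3.47%, and AGGTCA, the core of retinoic acid receptor sites, in 0 against 16.5%. The median ratio of observed to expected CpG was 0.849 in HOX windows and 0.579 in all 35116 windows. A match describes these letters and not binding. The windows below are shown for HOXA10 and HOXD10, both called lower, and for the start that HOXC4 (called) and HOXC5 (not called) share, with CCAAT or ATTGG in capitals. They lie at chr7:27174271-27174570 on the minus strand, chr2:176116528-176116827 on the plus strand and chr12:54016638-54016937 on the plus strand. RefSeq gives HOXA10 a further start upstream.
HOXA10 promoter: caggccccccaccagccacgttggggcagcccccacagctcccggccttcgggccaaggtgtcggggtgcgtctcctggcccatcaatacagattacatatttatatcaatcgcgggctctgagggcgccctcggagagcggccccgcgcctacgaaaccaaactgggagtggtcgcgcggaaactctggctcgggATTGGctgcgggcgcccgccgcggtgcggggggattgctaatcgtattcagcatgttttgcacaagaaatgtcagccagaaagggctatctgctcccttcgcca
HOXD10 promoter: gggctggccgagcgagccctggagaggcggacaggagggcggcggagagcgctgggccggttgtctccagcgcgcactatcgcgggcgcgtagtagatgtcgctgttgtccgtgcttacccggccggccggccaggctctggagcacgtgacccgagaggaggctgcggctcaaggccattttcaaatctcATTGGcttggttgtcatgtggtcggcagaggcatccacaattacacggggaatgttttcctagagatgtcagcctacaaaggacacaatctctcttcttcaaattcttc
HOXC4 and HOXC5 promoter: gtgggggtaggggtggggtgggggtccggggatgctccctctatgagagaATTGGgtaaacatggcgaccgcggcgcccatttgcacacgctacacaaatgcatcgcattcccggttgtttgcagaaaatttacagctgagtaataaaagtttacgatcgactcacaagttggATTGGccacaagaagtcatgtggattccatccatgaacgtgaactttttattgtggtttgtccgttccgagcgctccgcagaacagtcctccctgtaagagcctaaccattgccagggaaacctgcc

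HOXC4 and HOXC5 share every base of this window. HOXC4 fell by 0.26 on the log2 scale with tight replicates, and HOXC5 had a mean log2 fold change of -0.35 with VC libraries at 1.08, 0.77 and 1.37 and KO libraries at 1.05, 0.46 and 0.67, which overlapped.

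Within the KO group the libraries differed in the same order for most members. KO replicate 2 was the lowest KO library in 29 of the 37 members and KO replicate 1 the highest in 28. Among all genes lower in KO, KO replicate 2 was lowest in 62.3%. The share of all genes in which KO replicate 1 was highest was not computed. The mean deviation of the 37 members from their own means was 0.36, 0.11 and 0.38 in the VC libraries, in replicate order, and -0.05, -0.50 and -0.30 in the KO libraries. By cluster, HOXA deviated by 0.48, 0.40 and 0.49 in VC and by -0.20, -0.80 and -0.37 in KO, whereas HOXB deviated by 0.14, -0.0061 and 0.13 in VC and 0.059, -0.13 and -0.19 in KO. In HOXB the KO replicate 1 library lay among the VC libraries. VC replicate 2 was lower than the other VC libraries, most of all in the HOXD mean (-0.16 against 0.48 and 0.57). The largest gaps there were in the low HOXD12 (VC -2.47, -5.40 and -2.10) and HOXD3 (-3.20, -4.64 and -2.82). The VC libraries of HOXD4 (1.84, 1.90 and 1.91) and HOXD13 (1.90, 1.84 and 1.96) differed little.

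The TALE cofactors of HOX proteins were 10, all tested, with 3 called lower and 1 higher (40%, against 32.9% of all genes) and a median log2 fold change of -0.23. MEIS2 had signals of 2.01, 2.06 and 1.97 in VC and 1.47, 0.90 and 1.16 in KO (log2 fold change -0.84, adjusted p = 0.0187), and MEIS1, the partner of posterior HOX proteins in leukaemia, 0.51, 0.56 and 0.35 in VC and -0.022, -0.63 and -0.37 in KO (-0.81, adjusted p = 0.025). PBX3 fell by 0.51 (adjusted p = 0.0442), and PBXIP1, whose product sequesters PBX proteins, rose by 0.71 (adjusted p = 0.0297). PBX2, the most abundant at 5.46, was not called (-0.25, adjusted p = 0.0558) although its groups did not overlap. MEIS1, MEIS2 and PBXIP1 were called in 2 and PBX3 in 1 of the 6 leave-one-library-out fits.

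Regulators of the clusters did not move in 1 direction. Of 28 Polycomb group genes, 7 were called lower and 4 higher (39.3%, against 32.9% of all genes), with a median log2 fold change of -0.11, close to that of all genes. Of the 28, 27 lay in the upper 50% of mean signal, where 39.2% of genes were called. PCGF5, a subunit of a variant Polycomb complex, fell by 0.46 (adjusted p = 0.0134), while PCGF1, of another variant complex, rose by 0.78 (adjusted p = 0.0143), PHF1, an accessory protein of the H3K27 methylase complex, by 0.43 (adjusted p = 0.0149) and RING1, a ubiquitin ligase of the complexes, by 0.55 (adjusted p = 0.0197). PHC2, the most abundant, was not called (0.21, adjusted p = 0.137). Of 14 Trithorax group and H3K27 demethylase genes, 13 of them in that upper part, 4 were called lower and 2 higher (42.9%), with a median of -0.21. KDM6B, which removes the Polycomb mark, had 1.69, 1.47 and 1.69 in VC and 2.66, 3.15 and 2.66 in KO and more than doubled (1.20 on the log2 scale, standard error 0.17, adjusted p = 0.0114), with an adjusted p under 0.05 whichever library was left out. ASH2L, a core subunit of the H3K4 methylase complexes, rose by 0.66 (adjusted p = 0.0123), while DPY30 and WDR5, of the same complexes, fell by 0.44 and 0.46 (adjusted p = 0.0218 and 0.0242). PSIP1, a chromatin tether for the MLL complex and the most abundant, was not called (-0.16, adjusted p = 0.122). Among the leave-one-library-out fits, ASH2L was called in 5 of 6, PCGF1 in 4, PCGF5 and PHF1 in 3 and RING1, DPY30 and WDR5 in 2.

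Of the 15 tested genes of retinoic acid metabolism and response, 7 were called lower and 1 higher (53.3%, against 32.9% of all genes), with a median log2 fold change of -0.75, and 5 of the called genes changed at least 2-fold. ALDH1A2, which makes retinoic acid, had signals of 1.75, 1.71 and 1.76 in VC and -0.48, -1.15 and -1.29 in KO, 6.56-fold lower (a log2 fold change of -2.71 with standard error 0.22, adjusted p = 0.00605), and it was called whichever library was left out. CYP26B1, which degrades retinoic acid, fell by 0.99 (adjusted p = 0.0156) and RDH10, a retinol dehydrogenase gene, by 1.08 (adjusted p = 0.0261). RXRB, a partner of the retinoic acid receptors, rose by 0.25 (adjusted p = 0.0415). CRABP1, a retinoic acid-binding protein gene, had values of -1.52, -2.91 and -1.25 in VC and no value in KO. CYP26B1 was called in 3, RDH10 in 2 and RXRB in 1 of the 6 leave-one-library-out fits.

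Among 17 tested factors that act with HOX genes in limb patterning, 6 were called lower and 1 higher (41.2%, against 32.9% of all genes), with a median log2 fold change of -0.48. EN1, which marks the ventral limb, fell by 1.40 from a low level (VC -3.09, -2.74 and -2.86, KO -4.43, -4.25 and -4.21, adjusted p = 0.00675), and LMX1B, which marks the dorsal limb, by 0.84 (adjusted p = 0.0152). PRRX2, a limb mesenchyme factor, fell by 0.69 (VC 3.48, 3.15 and 3.36, KO 2.75, 2.56 and 2.61, adjusted p = 0.0149). TBX2 rose by 1.19 (VC 0.96, 0.49 and 0.96, KO 2.09, 2.07 and 1.82, adjusted p = 0.0115). EN1 and TBX2 were called whichever library was left out, LMX1B in 4 and PRRX2 in 3 of the 6 fits. TBX15, the most abundant at 6.23, was not called (-0.034, 95% interval -0.24 to 0.17, adjusted p = 0.774), and PITX1 was not either (adjusted p = 0.0993).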

How the data were processed

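RNA of 3 VC and 3 KO libraries of 143B cells was sequenced by the authors on an Illumina NextSeq instrument. The methods name Partek Genomics Suite and CLC Genomics software, and the submitters' processing notes list CASAVA, STAR, Partek and GRCh38.p13 without roles. The deposited values are log2 signals per gene symbol, quantile-normalized between libraries, of which 29611 genes had no value in any library. No count or depth is given, so precision rests on the replicates, and p-values measure only the spread between these samples.

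The log2 signals were used as deposited. Genes needed at least 2 values per group, which 19306 had, and were compared in R 4.3.3 with limma 3.58.1 (linear model, empirical Bayes without trend, two-sided), with Benjamini-Hochberg adjustment over all of them. Genes were called at an adjusted p under 0.05. The script was tested on simulated data. Groups came from the sample labels. Same-numbered VC and KO libraries deviated from their group means with correlations of 0.023, 0.0051 and -0.0074, so the replicate numbers did not pair the samples.

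The text names the HOX genes that were called, that led its cluster in level or in change, and, of each companion list, up to 4 called genes with the lowest adjusted p, the most abundant gene and genes beside called members. A few items that enter the counts are not reported here by name. Members and lists were chosen with earlier results of these data known. The alternatives were median-centred libraries, 1 added to the linear signal, genes with 6 values or with at least 1 value in each group, genes in the upper 50% of mean signal, trend and robust moderation, no moderation, a 2-fold threshold, a replicate block and the omission of each library. Median-centred means centred on the library's median over the genes with 6 values. Homeoboxes and exon overlaps were read from GENCODE release 29 (GRCh38) with Python 3.11.15, and promoters from RefSeq (GRCh38.p14).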

Additional observations from a re-analysis of the deposited data

How the results depend on the processing

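No HOX gene was called higher in KO by limma under any alternative (at an unadjusted p under 0.05 no member was higher either in the reported fit). The 19 called HOX genes became 11 without moderation (23.0% of all genes called), 4 with at least a 2-fold change (9.53%) and 2 to 24 with a library left out. Median-centred libraries gave 17 (32.3%), genes with 6 values 20 (38.3%) and genes with at least 1 value in each group 19 (30.3%). With 1 added to the linear signal there were 22 (40.6%), and with trend and robust moderation 22 (41.0%). In the upper 50% of mean signal, 15 of the 24 members tested there were called (59.1%). With a replicate block 5 HOX genes were called (HOXA4, HOXA5, HOXA10, HOXB13 and HOXC11) and 1533 genes in all (7.94%), although the numbers did not pair the samples. The median log2 fold change of HOX genes was -0.57 to -0.38 with a library left out. For all genes the calls were 1840 with a 2-fold change and 1223 to 8669 with a library left out.

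Called genes of the TALE, non-coding RNA, Polycomb, Trithorax, retinoid, limb and flanking lists numbered 0, 1, 0, 0, 2, 3 and 0 with the replicate block, 0, 1, 0, 1, 5, 4 and 0 with a 2-fold change, and 0 to 5, 2 to 8, 0 to 18, 1 to 9, 1 to 11, 2 to 10 and 0 to 13 with a library left out. Without moderation they were 2 (TALE), 3 (non-coding RNA), 4 (retinoid) and 4 (limb), with 23.0% of all genes called. The upper 50% of genes gave 3 non-coding RNAs and 5 retinoid genes (59.1% of all genes in that part called). With 1 added to the linear signal there were 17 Polycomb genes (40.6% of all genes), and trend and robust moderation gave 11 limb genes (41.0%). For the other settings the shares of all genes called are those given above. Median-centred libraries turned the sign of HOXB5 (0.032), HOXB6 (0.038) and TBX15 (0.050). With a library left out the log2 fold change ran from -0.12 to 0.0014 for HOXB5, -0.097 to 0.00069 for HOXB6, -0.046 to 0.41 for HOXD1, -1.53 to 0.36 for HOXD12, -0.092 to 0.018 for TBX15 and -0.27 to 0.016 for HOTAIRM1. None of these genes was called. The cause of these changes was not tested. Without read counts, what depth limits is unknown, and the low HOXD3, HOXD12 and HOXB1 rest on the least signal.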
